A study of Mus musculus with 10 samples.

Results

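The passage of mouse embryos from the middle 2-cell stage to the early 4-cell stage was described by comparing 2 RNA-seq libraries of control 4-cell embryos with 2 libraries of control 2-cell embryos. Levels were given as FPKM, fragment counts corrected for transcript length and library size. A gene was a member of the comparison when it reached at least 1 FPKM in at least 2 of these 4 libraries, and 6423 of the 21437 gene rows did so. In all there were 10 libraries, 2 in each of 5 groups. These were MII oocytes, control embryos of both stages, and embryos of both stages in which Ago2 had been knocked down (Ago2 kd). The labels describe every library as strain ICR, from females of 7 weeks that received 6.5 IU of PMSG and, 47 h later, 5 IU of hCG, while the growth notes and the methods name F1 crosses as the source of the embryos. According to the methods, 2-cell embryos were collected 40 h, 4-cell embryos 55 h and MII oocytes 16 h after hCG, and knockdown embryos had been injected as zygotes with siRNA against Ago2 and AGO2 antibodies. Whether the control embryos of these libraries were injected is not stated, and nothing says that the replicates were separate pools of embryos, so every p-value measures the spread between these libraries, which may be technical.

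In the mouse, transcripts stored in the oocyte carry the embryo through the first division, and most of them are degraded by the end of the 2-cell stage. The main wave of zygotic genome activation (ZGA) takes place in the middle to late 2-cell embryo, where it includes a short burst of 2-cell genes such as Zfp352 and the Zscan4 and Tdpoz clusters. It is followed by the transcription of genes for ribosome production and protein turnover and of the transcription factors of the first lineages. Most genes of the egg coat, the oocyte cortex and meiotic arrest are not transcribed again.

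Levels were compared as log2(FPKM + 1) with limma over the 10 libraries, and a gene was called higher or lower at a Benjamini-Hochberg adjusted p under 0.05. The deposited FPKM summed to 196312 and 203645 in the 2-cell and 268660 and 241317 in the 4-cell control libraries, and mitochondrially encoded transcripts took 5.34%, 4.87%, 10.8% and 5.22% of these sums. The number of reads is not kept in FPKM, and the depth of each library is therefore not known. In each of the 4 libraries, 3.79% to 5.81% of the genes above 10 FPKM in the other replicate were under 0.1 FPKM, and Gapdh, which every cell uses, was at most 0.167 FPKM in all 4. A value of 0 is therefore given as listed at 0, with both libraries' values and no fold. One library of the shared fit stood apart. Of the genes above 10 FPKM in 4-cell Ago2 kd replicate 2, 14.6% were under 0.1 FPKM in replicate 1, and without that replicate 2195 genes were higher and 1610 lower between the control stages. Markers of other cells were near 0. None of the 8 cumulus and granulosa cell rows was tested, and their sum was at most 1.28 FPKM. The sperm list summed to at most 3.50 FPKM, and the blood list to 3.31 and 5.73 FPKM in the 2-cell and 0.695 and 0.596 FPKM in the 4-cell libraries.

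Of the 6423 genes, 1964 (30.6%) were higher and 1573 (24.5%) were lower at the 4-cell stage, and 2886 were not called. Both 4-cell libraries lay above both 2-cell libraries in 2973 genes (46.3%) and below them in 2119 genes (33%), and the called genes were all among these. In bulk embryos, less RNA per embryo and a smaller share of the RNA cannot be told apart. The median difference was 2.91 log2 units over called rises, −2.89 over called falls and 0.52 over all genes. When the libraries were scaled to the same median, the same sum or the same quantiles, the median of all genes was 0.16, 0.32 and 0.15, so a difference of this size can follow from the scaling. Many genes were seen at only one of the stages. Of the 1964 higher genes, 978 reached 1 FPKM only at the 4-cell stage, and 409 were listed at 0 in both 2-cell libraries. Of the 1573 lower genes, 987 reached 1 FPKM only at the 2-cell stage, and 556 were listed at 0 in both 4-cell libraries. Such genes passed the filter through the stage where they are high and had to differ. Among the 4082 genes at 1 FPKM or more at both stages, 986 (24.2%) were higher and 586 (14.4%) were lower.

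The level in MII oocytes does not enter the difference between the stages, although the MII libraries shared in the estimate of the spread (with only the 4 libraries compared in the fit, 1920 genes were higher and 1531 lower). A mean above 2 FPKM in MII oocytes, taken here as the mark of a maternal transcript, was found for 1225 of the 1573 lower genes (77.9%), for 742 of the 1964 higher genes (37.8%) and for 62.5% of the genes not called. The 1225 lower maternal genes had median levels of 33.1 FPKM in MII oocytes, 22.2 FPKM in 2-cell and 0.405 FPKM in 4-cell embryos. Another 110 lower genes (6.99%) were listed at 0 in both MII libraries, with medians of 7.18 FPKM at the 2-cell and 0 at the 4-cell stage. Among the higher genes, 511 (26.0%) were listed at 0 in both MII libraries, against 11.8% of the genes not called. The 742 higher genes that were maternal had medians of 13.8, 4.06 and 49.8 FPKM in MII oocytes, 2-cell and 4-cell embryos, so their median was lowest at the 2-cell stage.

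The largest rises went from at or near 0 FPKM to abundant transcripts. Prps1 (chrX:140456613-140476140), the enzyme that makes the ribose phosphate donor of nucleotide synthesis, had 0.110 and 0.134 FPKM in the 2-cell libraries and reached 1333 and 926 FPKM at the 4-cell stage (difference 9.95 ± 1.26 log2 units, SE, adjusted p = 7.85e-04). The RNA-binding protein gene Hnrnpab (chr11:51600100-51606847) was listed at 0 in both 2-cell libraries and had 536 and 592 FPKM at the 4-cell stage (adjusted p = 1.14e-05), after 64.6 and 57.9 FPKM in MII oocytes. Stip1, a co-chaperone that links HSP70 and HSP90, was listed at 0 in the MII and the 2-cell libraries and had 576 and 473 FPKM in the 4-cell libraries (adjusted p = 0.0180). The chaperonin subunit gene Cct2 took a like course, with 0 in all MII and 2-cell libraries and then 260.2 and 283 FPKM (limma adjusted p = 0.00974). Their earlier course differed. Hnrnpab, Psmd7, Wdr43, Ppan and Lamp1 were present in both MII libraries and at or near 0 in 2-cell embryos, whereas Stip1, Cct2 and Lrrc59 were at 0 at both earlier stages. Stip1 lost its call in each of the 4 fits that left out a control embryo library, and Cct2 without 4-cell replicate 1 or 4-cell replicate 2.

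Psmd7, a lid subunit of the proteasome, rose from 0 in both 2-cell libraries to 326 and 375 FPKM, Wdr43, a factor of small ribosomal subunit assembly, to 251 and 293 FPKM, and the lysosomal membrane protein gene Lamp1 to 197 and 242 FPKM. Ppan, a factor of large subunit assembly, went from 0.0804 and 0.123 FPKM to 239 and 287 FPKM (difference 7.90 ± 1.29, adjusted p = 0.00232). Lrrc59, whose product binds ribosomes at the endoplasmic reticulum, had 185 and 221 FPKM, Tmem50b 437 and 307 FPKM, and Zmpste24, the protease that matures lamin A, 316 and 259 FPKM at the 4-cell stage, and all 3 were listed at 0 in both 2-cell libraries. The remaining row was Gm26917 (chr17:39843013-39846341), a non-coding row that overlaps the ribosomal RNA gene copy annotated on chromosome 17. It went from 2.05 and 1.67 FPKM to 1163 and 3576 FPKM (limma adjusted p = 4.86e-05), and reads of other ribosomal RNA copies may be included in it. The ribosomal RNA rows together, Gm26917 included, took 1.05% and 1.21% of the FPKM sum in the 2-cell libraries. In the 4-cell libraries they took 0.465% and 1.70%, so this total overlapped between the stages. The rise is therefore that of 1 row and not of ribosomal RNA as a whole. Gm26917 held a very small part of this total in the 2-cell libraries and most of it in the 4-cell libraries. The other ribosomal RNA rows together were thus lower at the 4-cell stage, and a shift of reads between the rows was not tested. Psmd7 and Zmpste24 lost their call in each of the 4 fits that left out a control embryo library, and Lamp1 without 4-cell replicate 2.

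**Figure D1:**
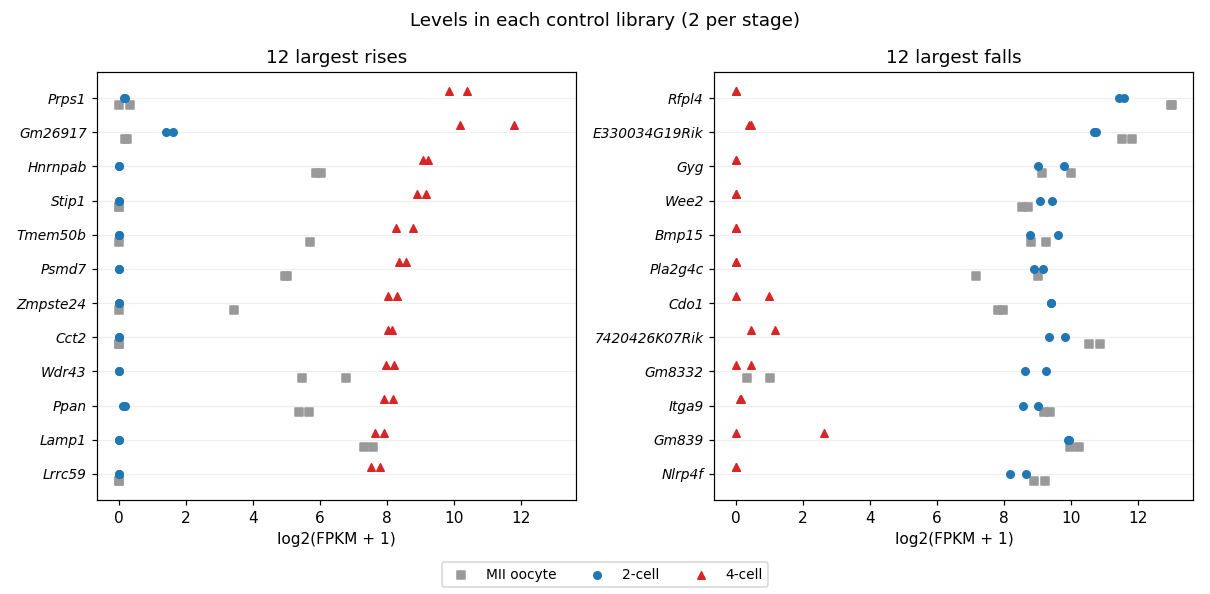
Levels of the genes with the 12 largest rises and the 12 largest falls, as log2(FPKM + 1) on the x axis, in each of the 2 control libraries of MII oocytes (grey squares), 2-cell embryos (blue circles) and 4-cell embryos (red triangles). The 2 stages of the embryo are separated in every gene, and the MII level lay near the 2-cell level in most of the falls but not in Gm8332.

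Promoter letters were read for genes of the largest rises. In the RefSeq promoter windows of GRCm38.p6, which run from 250 bases before to 50 bases after the start of a gene, the letters of the ETS motif bound by factors such as GABPA and ELK, CCGGAAG on either strand, were found in 3 of the 10 largest rises with a promoter in the table and in 0 of the 10 largest falls with one. They are shown in capitals.
Prps1, chrX:140456353-140456652, plus strand: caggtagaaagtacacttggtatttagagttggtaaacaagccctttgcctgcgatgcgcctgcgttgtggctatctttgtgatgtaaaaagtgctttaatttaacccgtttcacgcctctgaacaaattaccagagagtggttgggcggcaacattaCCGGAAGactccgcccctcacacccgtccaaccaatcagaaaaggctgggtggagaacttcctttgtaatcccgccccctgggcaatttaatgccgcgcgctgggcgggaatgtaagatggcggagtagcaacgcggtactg
Cct2, chr10:117063803-117064102, minus strand: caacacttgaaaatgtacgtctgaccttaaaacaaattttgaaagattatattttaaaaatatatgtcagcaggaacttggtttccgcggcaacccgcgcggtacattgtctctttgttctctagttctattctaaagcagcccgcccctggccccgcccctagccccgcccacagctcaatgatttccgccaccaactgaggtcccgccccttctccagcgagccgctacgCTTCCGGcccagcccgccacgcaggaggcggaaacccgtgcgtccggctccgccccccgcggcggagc
Ppan, chr9:20887925-20888224, plus strand: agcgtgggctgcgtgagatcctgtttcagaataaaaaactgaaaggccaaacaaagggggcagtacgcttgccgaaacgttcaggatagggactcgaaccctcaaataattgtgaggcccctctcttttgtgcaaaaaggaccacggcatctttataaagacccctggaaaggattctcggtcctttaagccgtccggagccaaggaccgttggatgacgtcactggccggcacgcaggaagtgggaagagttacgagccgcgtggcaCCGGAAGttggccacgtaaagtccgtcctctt

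The motif begins 92 bases before the start in Prps1, 18 bases before it in Cct2, where it reads on the other strand, and 18 bases after it in Ppan. Over protein-coding genes outside chromosome 18 with a matched promoter, CCGGAAG was found in 28.5% of 1130 higher, 23.8% of 1871 not called and 14.4% of 932 lower genes, and in 9.12% of all 27025 promoters. It was found in 48.4% of 31 promoters of large subunit assembly factors, 37.5% of 32 of the proteasome and 25.9% of 27 of the small subunit processome. The MYC E-box CACGTG was found in 13.7%, 10.7% and 8.91% of higher, not called and lower genes and in 7.24% of all promoters, and the GC box GGGCGG in 65.8%, 66.4% and 57.6% and in 35.9% of all. The median GC content of the windows was 61.2% in higher, 61.0% in not called and 59.0% in lower genes, so base composition moved with the shares, and its part in them was not tested.

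**Figure D2:**
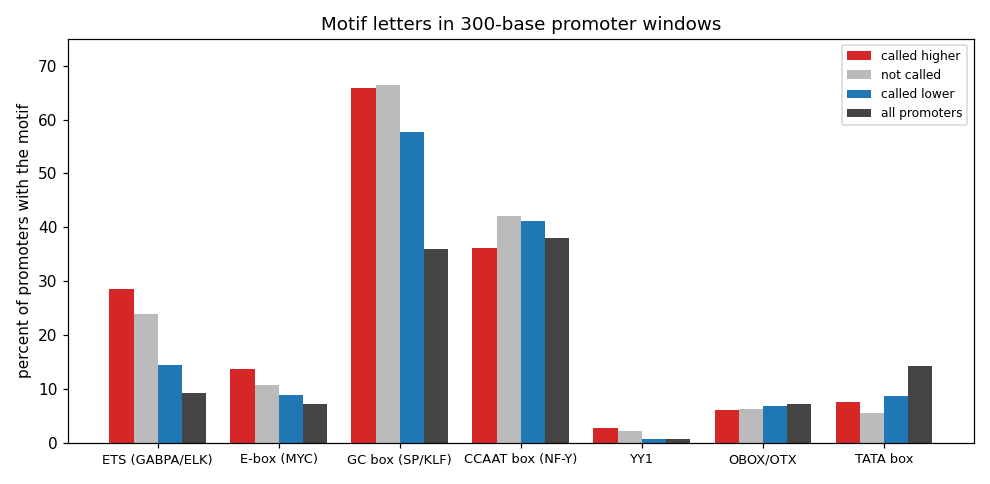
Percent of 300-base promoter windows that hold the letters of 7 motifs on either strand, for protein-coding genes called higher (red), not called (light grey) and called lower (blue) at the 4-cell stage and for all RefSeq promoters (dark grey). The ETS letters were found in 28.5% of genes called higher against 14.4% of genes called lower, and the OBOX letters in 6.11% against 6.76%.

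The largest falls were those of abundant oocyte transcripts. Rfpl4 (chr7:5109787-5116950), an oocyte gene whose product binds ubiquitin pathway proteins, had 8217 and 8145 FPKM in MII oocytes, then 2735 and 3055 FPKM in the 2-cell libraries, and 4-cell embryos had 0 in both (adjusted p = 1.28e-06). Wee2, the oocyte kinase that holds CDK1 inactive during meiotic arrest and at the exit from meiosis, had 690.1 and 533 FPKM at the 2-cell stage and 0 in both 4-cell libraries (adjusted p = 9.48e-06). The oocyte growth factor gene Bmp15 had 787 and 436 FPKM and then 0 in both 4-cell libraries (adjusted p = 2.04e-05). E330034G19Rik went from 1696 and 1649 FPKM to 0.298 and 0.368 FPKM (difference -10.29 ± 0.51, adjusted p = 2.63e-05). Itga9, an integrin subunit, went from 512 and 376 FPKM to 0.0885 and 0.114 FPKM (difference -8.64 ± 0.30, adjusted p = 1.14e-05).

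Gyg, which primes glycogen synthesis, fell from 518 and 884 FPKM, Pla2g4c, a phospholipase A2, from 576 and 471 FPKM, and Nlrp4f, of the oocyte cortex, from 403 and 290.0 FPKM, and all 3 were listed at 0 in both 4-cell libraries. Cdo1, a cysteine dioxygenase, had 671 and 673 FPKM at the 2-cell stage, above its 249.6 and 226 FPKM in MII oocytes, and 0 and 0.981 FPKM at the 4-cell stage. The uncharacterised gene 7420426K07Rik went from 642 and 910.4 to 0.368 and 1.22 FPKM, and the long non-coding RNA Gm839 from 956 and 977 to 5.11 and 0 FPKM. Gm8332, on chromosome 12, was the one of the 12 that was low in MII oocytes, with 0.261 and 1.0002 FPKM in MII oocytes, 392 and 609 FPKM in 2-cell and 0.346 and 0 FPKM in 4-cell embryos (adjusted p = 2.78e-05).

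The ends of the mRNAs were read for the letters of the cytoplasmic polyadenylation element, TTTTAT, which marks many stored oocyte mRNAs for a change of their poly(A) tail during maturation. The window was the last 200 bases of the annotated transcript with the longest coding sequence (GENCODE M21, sense strand). Only transcripts whose 3' untranslated region had at least 200 bases were used. The letters were found in 28.4% of 957 lower, 25.9% of 1889 not called and 19.9% of 1166 higher genes and in 22.6% of all. The polyadenylation signal AATAAA was found in 74.1%, 70.2% and 67.5% of the same genes. The median A and T content of these windows was 62.5%, 61.0% and 59.5%, in the same order as both shares. The element was found in 5 of the 10 largest falls with a matched end, shown here in capitals within 30 bases, and also in 4 of the 10 largest rises.
Rfpl4, chr7:5109910-5109939, minus strand: gaatgctttcctTTTTATttgctataatat
E330034G19Rik, chr14:24309917-24309946, plus strand: attaagagaatgTTTTATgaataataaact
7420426K07Rik, chr9:98904530-98904559, plus strand: cttagtaattttTTTTATctccagtaaact
Nlrp4f, chr13:65177128-65177157, minus strand: tgctgttttgtgTTTTATattaaagaatag
Wee2, chr6:40466784-40466813, plus strand: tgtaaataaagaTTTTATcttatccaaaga

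Factors that assemble ribosomes were higher at the 4-cell stage in large part. Of the 35 tested large subunit assembly factors, 27 were higher and 1 was lower, against 30.6% and 24.5% of all genes, and the median level of the list went from 1.04 to 47.3 FPKM (median difference 3.55 log2 units, against 0.52 over all genes). Of the 20 of them seen at both stages, 12 were higher. Rrp1 was listed at 0 in both 2-cell libraries and had 201 and 196 FPKM at the 4-cell stage (adjusted p = 0.00132). Mrto4, which loads the ribosomal stalk, went from 0.751 and 0.0689 FPKM to 151 and 290.1 FPKM (difference 7.27 ± 1.62, adjusted p = 0.00835). The lower gene was Tex10, with 30.2 and 24.002 FPKM and then 9.54 and 9.16 FPKM (limma adjusted p = 0.0153). Mrto4 lost its call without 4-cell replicate 2 and Tex10 without 2-cell replicate 1.

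Among the factors of the small subunit processome, which processes the precursor of the small subunit RNA, 20 of 34 were higher and 0 were lower (0 also at an unadjusted p under 0.05, by limma), with a median difference of 2.58, and of 24 seen at both stages 11 were higher. Nol9, a kinase of pre-rRNA processing, had 0 in both 2-cell libraries and 83.6 and 149 FPKM at the 4-cell stage, and Wdr36 had 0 and then 161 and 142 FPKM. Of 12 late small subunit assembly and export factors, 10 were higher, among them Nob1, the nuclease of the last cut of the small subunit RNA, with 0.143 and 0.150 FPKM and then 153 and 209.5 FPKM (difference 7.30 ± 0.37, adjusted p = 2.64e-05), the helicase gene Ddx21 with 0 and then 123 and 136 FPKM, and Ltv1 with 0 and then 135 and 125 FPKM. Riok1 was the lower one, with 22.4 and 65.2 FPKM and then 0 in both libraries. Of these 12 late factors, 6 reached 1 FPKM at the 4-cell stage only and had to differ, and of 5 seen at both stages 4 were higher. The numbers of these calls rested on having both replicates. Without 2-cell replicate 1, 2-cell replicate 2, 4-cell replicate 1 and 4-cell replicate 2 in turn, the fit called 18, 18, 17 and 16 large subunit factors higher, 11, 17, 14 and 12 processome factors and 6, 7, 6 and 6 late factors, and at most 1 of any of the 3 lists lower. In these fits the remaining library of a stage is assumed to vary like the other groups. Wdr36, Ltv1 and Riok1 lost their call in each of the 4 fits that left out a control embryo library.

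The proteins of the ribosome itself had a smaller median difference. Of the 78 cytosolic ribosomal protein rows, 54 were tested, 30 were higher and 1 was lower (10 higher among 29 seen at both stages), with a median difference of 1.95 and median levels of 1.02 FPKM at the 2-cell and 6.64 FPKM at the 4-cell stage. The median of the tested rows was 0 FPKM in MII oocytes. The genes have many near-identical pseudogenes, whose rows share their reads, and the part of this in the values was not tested. Among the 65 tested rows whose symbol begins with Rpl, pseudogenes included, 44 were higher, of which 26 were named as pseudogenes, and among the 53 that begin with Rps, 35 were higher, of which 20 were named as pseudogenes. Rps15a went from 0.243 and 0 FPKM to 33.1 and 54.4 FPKM (limma adjusted p = 1.06e-04), Rpl8 was listed at 0 in both 2-cell libraries and had 23.5 and 17.4 FPKM, and Rps26 went from 0 and 2.43 FPKM to 23.03 and 26.8 FPKM (limma adjusted p = 0.0135). Rps27l, a stress-related copy of Rps27, was the lower row, with 289 and 375 FPKM and then 113 and 136 FPKM (limma adjusted p = 0.0467). With each of the 4 libraries left out, in the order above, 14, 23, 17 and 21 of the 54 were called higher and none lower. Of 55 mitochondrial ribosomal proteins, 15 were higher and 3 were lower, a share of higher genes below that of all genes, and with the 4 libraries left out in turn 10, 11, 7 and 12 were called higher and 1, 1, 2 and 1 lower. Rps27l lost its call in each of the 4 fits that left out a control embryo library, and Rps26 without 2-cell replicate 1, 4-cell replicate 1 or 4-cell replicate 2.

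Translation factors were also higher in part. Of 41 initiation factors, 22 were higher and 3 were lower (median difference 3.01, with 11 of 28 higher among those seen at both stages). The 3 largest were subunits of eIF3, the scaffold of the initiation complex. Eif3b had 143 and 160.0 FPKM and Eif3l 165 and 123 FPKM at the 4-cell stage, and both were at 0 in all MII and 2-cell libraries. Eif3e was also at 0 in both 2-cell libraries and had 82.4 and 270.2 FPKM in 4-cell embryos, but 125 and 135 FPKM in MII oocytes. Eif4e3, of the cap-binding eIF4E family, fell from 61.6 and 61.3 FPKM to 0 in both 4-cell libraries (adjusted p = 3.19e-05), and Eif4enif1, which holds eIF4E in repressed mRNPs, fell from 35.01 and 46.1 FPKM to 1.45 and 2.46 FPKM (difference -3.82 ± 0.47, adjusted p = 6.74e-04). Leaving the libraries out in turn gave 15, 16, 14 and 18 higher and 2, 3, 3 and 3 lower initiation factors. Eif3l lost its call without 2-cell replicate 1 or 4-cell replicate 1.

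Of 10 elongation and release factors, 4 were higher and 1 was lower (1 higher among 5 seen at both stages, and 5, 5, 3 and 3 higher and 0, 1, 0 and 0 lower without each library). Eef2, the translocase of elongation, was at 0 at the MII and 2-cell stages and had 115 and 127 FPKM at the 4-cell stage (adjusted p = 0.00203), whereas Eef2k, the kinase that inhibits it, went from 53.7 and 12.2 FPKM to 0 in both 4-cell libraries (adjusted p = 0.0125). Abce1, which recycles ribosomes, had 0 in all MII and 2-cell libraries and 112 and 55.6 FPKM in 4-cell embryos, and the release factor gene Gspt1 went from 0.0780 and 0.112 FPKM to 94.6 and 58.7 FPKM (limma adjusted p = 0.00692). Of 12 aminoacyl-tRNA synthetase genes, 6 were higher (50%, against 30.6% of all genes) and 1 was lower (8.33%, against 24.5%). Of these 12, 6 reached 1 FPKM at the 4-cell stage only, and among 5 seen at both stages 3 were higher. The subunits of phenylalanyl-tRNA synthetase moved in opposite directions, with 0.273 and 0.0516 and then 51.1 and 84.6 FPKM for Farsa (difference 5.85 ± 0.74) and 49.5 and 45.2 and then 0.161 and 0.157 FPKM for Farsb (difference -5.38 ± 1.16). Eef2k lost its call without 2-cell replicate 1, 4-cell replicate 1 or 4-cell replicate 2.

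**Figure D3:**
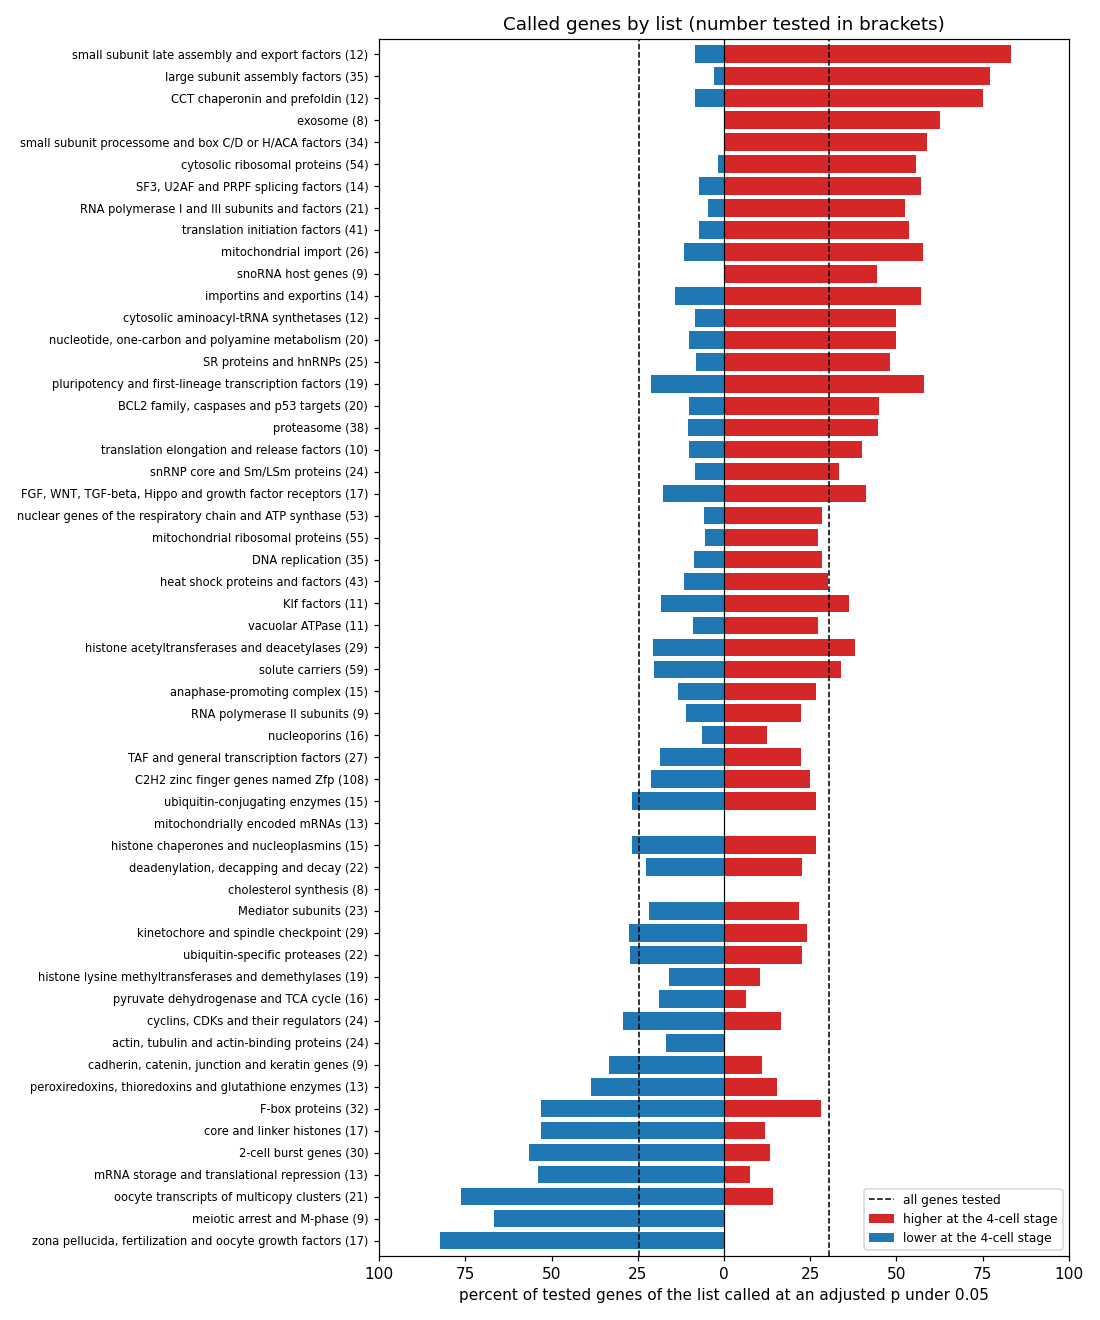
Percent of the tested genes of each list that were called higher (red, to the right) or lower (blue, to the left) at the 4-cell stage, with the number tested in brackets, for lists with at least 8 tested genes. The dashed lines mark the shares over all 6423 genes, 30.6% higher and 24.5% lower, and the lists run from late small subunit assembly factors at the top to the zona pellucida and oocyte factors at the bottom.

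Genes of RNA synthesis and processing came next. Of 21 subunits and factors of RNA polymerases I and III, which make ribosomal RNA and tRNA, 11 were higher and 1 was lower (5 higher among 12 seen at both stages). Ubtf, the activator of the ribosomal RNA genes, went from 0.171 and 0.240 FPKM to 64.3 and 96.04 FPKM (difference 6.05 ± 1.16, adjusted p = 0.00455), and Twistnb, a subunit of RNA polymerase I, from 0 in both libraries to 27.8 and 11.4 FPKM. Polr3k was the lower one, with 19.7 and 23.3 FPKM and then 0.279 and 0.165 FPKM. The subunits of RNA polymerase II, the general transcription factors and Mediator were more evenly divided, with 2 of 9, 6 of 27 and 5 of 23 higher and 1, 5 and 5 lower. In the fits without each library, in the order above, the higher genes numbered 1, 2, 2 and 1, 4, 3, 3 and 2 and 4, 5, 3 and 5, and the lower polymerase subunits 1, 0, 1 and 0. Taf9b fell from 191 and 171 FPKM and Med15 from 105 and 73.7 FPKM, each to 0 in both 4-cell libraries, while Gtf2f2, of TFIIF, rose from 0 at the MII and 2-cell stages to 101 and 144 FPKM. Gtf2f2 lost its call in each of the 4 fits that left out a control embryo library.

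In RNA processing, 12 of 25 SR protein and hnRNP genes, 8 of 14 SF3, U2AF and PRPF splicing factors and 5 of 8 exosome genes were higher, and 2, 1 and 0 were lower (for the exosome 0 also at an unadjusted p under 0.05, by limma). Among those seen at both stages, 8 of 18, 2 of 6 and 3 of 6 were higher. Of 24 snRNP core and Sm/LSm genes, 8 were higher (33.3%, near the 30.6% of all genes) and 2 were lower. Among 18 of these seen at both stages, 5 were higher. The splicing regulator gene Srsf2 went from 3.82 and 11.98 FPKM to 397 and 471 FPKM (difference 5.78 ± 0.63, adjusted p = 4.25e-04), Srsf6 from 0 to 118 and 119 FPKM, and Prpf4, of the U4/U6 particle, from 0.0691 and 0.0873 FPKM to 28.3 and 26.01 FPKM (difference 4.71 ± 0.23, adjusted p = 2.63e-05). Dis3, the catalytic exonuclease of the exosome, had 0 in all MII and 2-cell libraries and 51.7 and 34.5 FPKM in 4-cell embryos. In the fits without each library, 6, 9, 7 and 5 genes of RNA polymerases I and III, 7, 8, 10 and 10 SR proteins and hnRNPs (2, 1, 3 and 1 lower), 4, 3, 3 and 4 SF3, U2AF and PRPF factors and 5, 6, 4 and 5 exosome genes were called higher. Srsf6 lost its call in each of the 4 fits that left out a control embryo library.

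Protein folding and degradation showed both directions. Of 12 CCT chaperonin and prefoldin genes, whose products fold actin and tubulin, 9 were higher, 8 of them among the 11 seen at both stages, and Pfdn4 was lower. Cct4 went from 9.44 and 0.382 FPKM to 307 and 197 FPKM (limma adjusted p = 0.0398) and Cct7 from 0.505 and 16.3 FPKM to 255 and 218 FPKM (limma adjusted p = 0.0375), and in both genes the 2-cell replicates were far apart. Without each of the libraries, 5, 7, 4 and 5 of the 12 were called higher and none lower. Of 38 proteasome genes, 17 were higher and 4 were lower, and among 23 seen at both stages 6 were higher and 4 lower. Psma6, of the core particle, had 0 in both 2-cell libraries and 80.2 and 83.4 FPKM at the 4-cell stage, and the ATPase gene Psmc1 had 0 and then 126 and 19.4 FPKM. The lower genes included Psme4, the activator PA200, with 80.3 and 103 FPKM and then 21.1 and 20.7 FPKM (difference -2.07 ± 0.30, adjusted p = 0.00131), and Psmd10 and Psmg1, which assist proteasome assembly, with differences of -2.69 ± 0.51 and -1.74 ± 0.52. With each library left out, 11, 13, 13 and 11 proteasome genes were called higher and 3, 3, 3 and 3 lower. Cct4, Psmc1 and Psmg1 lost their call in each of the 4 fits that left out a control embryo library, and Cct7 without 2-cell replicate 1, 4-cell replicate 1 or 4-cell replicate 2.

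Hspa4, a nucleotide exchange factor of HSP70, had 0 in all MII and 2-cell libraries and 105 and 147 FPKM in 4-cell embryos. Hsf1, the maternal heat shock factor, fell from 10.8 and 10.4 FPKM to 0 in both 4-cell libraries (adjusted p = 5.96e-04). Of all 43 heat shock genes, 13 were higher (30.2%, against 30.6% of all genes) and 5 lower (11.6%, against 24.5%), with 3, 4, 6 and 5 lower without each library. Of 32 F-box genes, which choose the substrates of SCF ubiquitin ligases, 17 were lower and 9 were higher, with 12, 11, 13 and 14 lower and 4, 8, 7 and 5 higher without each library. Of the 32, 11 reached 1 FPKM at the 2-cell stage only and had to differ, and among the 18 seen at both stages 7 were lower and 7 higher, with a median difference of 0.51 in place of -1.42. Fbxw14, of an oocyte cluster, had 8080.4 and 7336 FPKM in MII oocytes, 374 and 229 FPKM in 2-cell and 8.42 and 0.188 FPKM in 4-cell embryos (difference -6.46 ± 1.45, adjusted p = 0.00851), while Fbxo15, a target of pluripotency factors, had 0 in MII oocytes, 5.75 and 18.6 FPKM in 2-cell and 499.9 and 338 FPKM in 4-cell embryos (difference 5.16 ± 1.48, adjusted p = 0.0223). Ubiquitin-specific proteases were split, with 5 of 22 higher (22.7%, against 30.6% of all genes) and 6 lower (27.3%, against 24.5%). The lower ones included Usp9x, which fell from 44.8 and 59.5 FPKM to 0.203 and 0.533 FPKM (limma adjusted p = 0.00283). Fbxw14 lost its call without 4-cell replicate 2 and Fbxo15 without 2-cell replicate 1, 4-cell replicate 1 or 4-cell replicate 2.

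Mitochondrial genes were taken in several lists. Of 26 mitochondrial import genes, 15 were higher and 3 were lower, and among 18 seen at both stages 8 were higher. The receptor gene Tomm22 had 0 in both 2-cell libraries and 56.7 and 86.4 FPKM in 4-cell embryos (adjusted p = 4.29e-05), Tomm70a 0 and then 122 and 59.7 FPKM, and Timm22, of the inner membrane, 0 and then 45.4 and 30.8 FPKM. Timm21 fell from 9.99 and 8.20 FPKM to 0 in both libraries. Of 53 nuclear genes of the respiratory chain and ATP synthase, 15 were higher, near the 30.6% of all genes, and 3 were lower (7, 6, 6 and 9 higher without each library). Atp5a1, the alpha subunit of ATP synthase, went from 0.0967 and 0.160 FPKM to 132 and 103 FPKM (limma adjusted p = 0.0227), while Cox6b2, an isoform known from testis, fell from 5.30 and 12.5 FPKM to 0.309 and 0.743 FPKM (limma adjusted p = 0.00513). Atp5a1 lost its call in each of the 4 fits that left out a control embryo library.

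None of the 13 mitochondrially encoded mRNAs was called by limma, and 0 of them passed an unadjusted p under 0.05. The most abundant, mt-Cytb, had 4017 and 3773 FPKM at the 2-cell stage and then 8475 and 3618 FPKM (difference 0.51 ± 0.46, adjusted p = 0.376), so the higher 4-cell replicate lay above both 2-cell libraries and the other did not. The median of the 13 was 0.24 as deposited and −0.21, −0.05 and −0.13 under the 3 scalings. In central metabolism, 1 of 16 genes of pyruvate dehydrogenase and the TCA cycle was higher and 3 were lower, among them Dlst, with 22.5 and 19.5 FPKM and then 0 in both libraries. Of 4 tested glycolytic genes, Ldhb, the lactate dehydrogenase subunit of the oocyte, fell from 142 and 142 FPKM to 0 in both 4-cell libraries (adjusted p = 0.0222). Ldhb lost its call in each of the 4 fits that left out a control embryo library.

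Nucleotide, one-carbon and polyamine genes included some of the most abundant rises. Of 20, 10 were higher and 2 were lower, and with each library left out 6, 8, 8 and 7 were called higher and 2, 1, 1 and 1 lower. Among 12 seen at both stages, 4 were higher and 1 was lower. Beside Prps1, Mat2a, which makes the methyl donor S-adenosylmethionine, went from 3.85 and 2.06 FPKM to 466 and 651 FPKM (difference 7.16 ± 0.37, adjusted p = 2.72e-05), and Paics, an enzyme of purine synthesis, from 0.386 and 0.269 FPKM to 74.9 and 309 FPKM (difference 6.85 ± 1.82, adjusted p = 0.0167). Rrm2b, a ribonucleotide reductase subunit, fell from 63.2 and 61.9 FPKM to 0 in both libraries (adjusted p = 4.86e-05). Of 59 solute carriers, 20 were higher (33.9%) and 12 were lower (20.3%), near the 30.6% and 24.5% of all genes. Among 37 seen at both stages, 7 were higher and 5 lower. Slc5a6, a vitamin transporter, went from 1.86 and 0.0868 FPKM to 263 and 319 FPKM (difference 7.36 ± 0.87, adjusted p = 6.07e-04), and the glutamate transporter gene Slc1a1 from 0 and 0.0384 FPKM to 71.05 and 79.9 FPKM (difference 6.23 ± 1.46, adjusted p = 0.0102). Slc2a1, the glucose transporter GLUT1, fell from 36.2 and 26.8 FPKM to 0 in both 4-cell libraries (adjusted p = 1.05e-04). Paics lost its call without 2-cell replicate 1, 2-cell replicate 2 or 4-cell replicate 2 and Slc1a1 without 4-cell replicate 1 or 4-cell replicate 2.

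Genes of the cell division machinery were called in both directions. Of 35 DNA replication genes, 10 were higher (28.6%, against 30.6% of all genes) and 3 were lower (8.57%, against 24.5%), with 6, 8, 6 and 5 higher and 5, 3, 3 and 3 lower without each library. Mcm6, of the replicative helicase, had 20.6 and 9.98 FPKM in MII oocytes, 0.811 and 1.20 FPKM in 2-cell and 154 and 111 FPKM in 4-cell embryos (difference 6.05 ± 1.08, adjusted p = 0.00335). Orc1 went from 0.0712 and 0 FPKM to 23.6 and 49.8 FPKM (difference 5.10 ± 1.19, adjusted p = 0.00992) after 32.5 and 35.5 FPKM in MII oocytes. Rpa3 fell from 74.3 and 57.1 FPKM to 0 in both libraries (adjusted p = 1.44e-04). Of 29 kinetochore and spindle checkpoint genes, 8 were lower (27.6%) and 7 were higher (24.1%), both near the shares of all genes, and these counts were 5, 3, 5 and 4 lower and 2, 2, 1 and 3 higher without each library. Among the 19 of these genes seen at both stages, however, 7 were lower and 1 was higher, with a median difference of -1.12. Over all genes seen at both stages, 14.4% were lower and 24.2% were higher. Dsn1 had 463 and 445 FPKM in MII oocytes, 0.199 and 0.120 FPKM in 2-cell and 105 and 67.8 FPKM in 4-cell embryos, whereas Nuf2, of the NDC80 complex, had 159 and 105 FPKM at the 2-cell and 0 and 0.120 FPKM at the 4-cell stage. Orc1 lost its call without 4-cell replicate 2 and Dsn1 without 4-cell replicate 1.

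Among cyclins, CDKs and their regulators, 4 of 24 were higher (16.7%, against 30.6% of all genes) and 7 were lower (29.2%, against 24.5%). Among 17 of them seen at both stages, 1 was higher and 4 were lower. The phosphatase gene Cdc25a, which activates CDKs, went from 0.721 and 0.427 FPKM to 75.9 and 70.5 FPKM (difference 5.56 ± 0.67, adjusted p = 6.64e-04) and Cdk4 from 0.181 and 0.208 FPKM to 50.3 and 41.3 FPKM (difference 5.28 ± 1.34, adjusted p = 0.0138). The maternal phosphatase gene Cdc25b fell from 72.9 and 51.9 FPKM to 2.91 and 4.34 FPKM (difference -3.77 ± 0.35, adjusted p = 2.19e-04). Of the WEE kinases, Wee2 fell, as given above, and Wee1 went from 0 and 1.52 FPKM to 19.7 and 29.8 FPKM (difference 3.99 ± 1.14, adjusted p = 0.0221). Cdk4 lost its call in each of the 4 fits that left out a control embryo library, and Wee1 without 2-cell replicate 1, 4-cell replicate 1 or 4-cell replicate 2.

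Most transcription factors of the first lineages were higher at the 4-cell stage. Of 19 tested, 11 were higher and 4 were lower, against 5 and 2 of the 11 seen at both stages, and the summed level of the whole list of 33 rows was 157 and 201 FPKM in the 2-cell and 681 and 634 FPKM in the 4-cell libraries. Tead4, the factor that directs the trophectoderm, was at 0 in all MII and 2-cell libraries and had 16.5 and 40.1 FPKM at the 4-cell stage (adjusted p = 1.30e-04). Sall4, of the pluripotency network, had 235 and 273 FPKM in MII oocytes, 0.337 and 0.197 FPKM in 2-cell and 105 and 110.4 FPKM in 4-cell embryos (difference 6.43 ± 0.79, adjusted p = 6.86e-04). Sox15 went from 0 and 2.72 FPKM to 100.5 and 115 FPKM (difference 5.82 ± 0.95, adjusted p = 0.00239). The lower genes were the helix-loop-helix inhibitors Id1 and Id2 and Mycn, and Pou5f1, named here after its values were seen. Id2 had 24.5 and 32.3 FPKM in the 2-cell libraries and 0 in all MII and 4-cell libraries, and Mycn had 7.41 and 3.46 FPKM in the 2-cell libraries and 0 in the others, so both were seen at the 2-cell stage alone in the control series. Pou5f1 had 44.9 and 60.4, 52.3 and 62.4 and 23.1 and 18.5 FPKM in the libraries of MII oocytes, 2-cell and 4-cell embryos (difference -1.42 ± 0.38, adjusted p = 0.0175). Leaving out each library, 10, 10, 9 and 10 genes of the list were called higher and 2, 2, 2 and 1 lower. Mycn lost its call without 2-cell replicate 1, 4-cell replicate 1 or 4-cell replicate 2.

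Of 11 Klf factors, 4 were higher (36.4%) and 2 were lower (18.2%), near the 30.6% and 24.5% of all genes. Klf2 was at 0 in all MII and 2-cell libraries and had 86.6 and 63.8 FPKM at the 4-cell stage (adjusted p = 2.38e-05), Klf5, a regulator of the blastocyst lineages, went from 2.44 and 2.46 FPKM to 56.01 and 88.6 FPKM (difference 4.37 ± 0.66, adjusted p = 0.00168), and Klf9 from 0.776 and 2.24 FPKM to 32.1 and 90.8 FPKM (difference 4.52 ± 0.74). Klf6 and Klf7 were lost, with 7.37 and 3.25 and 4.59 and 2.64 FPKM at the 2-cell stage and 0 in all 4-cell libraries. Of 17 signalling genes, 7 were higher (41.2%, against 30.6% of all genes) and 3 were lower (17.6%, against 24.5%). The 7 higher genes were of several pathways. These included components of the Hippo pathway, which controls the TEAD factors: Lats2 went from 0 to 14.4 and 10.8 FPKM and Amotl2 from 0.0926 and 0 FPKM to 46.7 and 13.6 FPKM (limma adjusted p = 7.38e-04). Fgf4, the ligand made by the later inner cell mass, had 0 in all MII and 2-cell libraries and 28.9 and 7.15 FPKM in 4-cell embryos (adjusted p = 9.94e-04). Egfr fell from 52.2 and 27.6 FPKM and Smad4 from 7.41 and 11.98 FPKM, both to 0 in the 4-cell libraries. Gja1, the gap junction protein connexin 43, of the cadherin, junction and keratin list (1 of 9 higher and 3 lower, with 2, 1, 1 and 2 higher without each library), rose from 2.01 and 2.15 FPKM to 135 and 52.2 FPKM (difference 4.79 ± 0.73, adjusted p = 0.00170). Smad4 lost its call in each of the 4 fits that left out a control embryo library.

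Among BCL2 family, caspase and p53 target genes, 9 of 20 were higher and 2 were lower, and of 13 seen at both stages 4 and 1. The lower genes included Bcl2l10, the abundant BCL2 relative of the oocyte, and the higher ones Mcl1, a survival factor of early embryos. Bcl2l10 had 19659.7 and 22153 FPKM in MII oocytes, 4196 and 3698 FPKM in 2-cell and 17.5 and 8.0005 FPKM in 4-cell embryos (difference -8.25 ± 0.49, adjusted p = 4.19e-05), while Mcl1 was at 0 in MII oocytes and had 0 and 2.30 FPKM in 2-cell and 131 and 232 FPKM in 4-cell embryos (difference 6.59 ± 0.90, adjusted p = 0.00106). In the fits without each library, 6, 6, 6 and 7 genes of the list were called higher and 1, 1, 1 and 2 lower.

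Of the 30 tested genes of the 2-cell burst, 17 were lower and 4 were higher at the 4-cell stage, with a median difference of -2.69. The filter had let in 13 of them through the 2-cell stage only, and among the 17 seen at both stages 6 were lower and 4 higher, with a median of -0.72. In the 30 genes the median level was 0.0178 FPKM in MII oocytes, 23.1 FPKM in 2-cell and 1.42 FPKM in 4-cell embryos. Zfp352 had 0.113 and 0 FPKM in MII oocytes, 197 and 290.4 FPKM in 2-cell and 6.22 and 0.805 FPKM in 4-cell embryos (difference -6.06 ± 0.75, adjusted p = 6.99e-04). Tcstv3 went from 273 and 306 FPKM to 0.541 and 0.812 FPKM (difference -7.44 ± 0.37, adjusted p = 2.64e-05), but it also had 17.95 and 33.9 FPKM in MII oocytes. Gm2022 was listed at 0 in both MII libraries and had 75.7 and 205 and then 0.383 and 0 FPKM (limma adjusted p = 0.00808). With each library left out, 12, 14, 13 and 12 were called lower and 3, 2, 2 and 4 higher.

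The promoter of Zfp352, a gene of the 2-cell burst, is shown for a repeat of the letters TAATCC, the core bound by OTX and OBOX homeobox proteins, in capitals.
Zfp352, chr4:90218570-90218869, plus strand: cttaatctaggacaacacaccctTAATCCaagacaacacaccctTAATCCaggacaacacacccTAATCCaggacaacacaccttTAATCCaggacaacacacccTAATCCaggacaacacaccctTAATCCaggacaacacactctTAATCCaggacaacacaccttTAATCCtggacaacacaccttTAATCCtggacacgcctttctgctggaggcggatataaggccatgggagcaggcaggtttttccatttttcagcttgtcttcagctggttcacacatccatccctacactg

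The window holds 9 copies on the plus strand, which begin 227, 206, 186, 165, 145, 124, 103, 82 and 61 bases before the start, so neighbouring copies begin 20 or 21 bases apart. The letters were found in 6.11% of higher genes, in 6.76% of lower genes and in 7.16% of all promoters. They were found in 8 of the 17 matched promoters of the burst list (47.1%), but only 17 of its 28 protein-coding genes (60.7%) had a matched promoter, and several of its genes are near-copies of each other, so this share is no measure of the list.

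The higher genes were Sp110, named here after its values were seen, and the 3 Trim43 genes. All 3 were at 0 in both MII libraries. Trim43b had 66.8 and 137 FPKM in 2-cell and 1518 and 881 FPKM in 4-cell embryos (difference 3.58 ± 0.46, adjusted p = 8.47e-04), Trim43c 5.85 and 29.6 and then 229 and 213 FPKM (3.94 ± 0.78, adjusted p = 0.00519) and Trim43a 13.3 and 26.9996 and then 435 and 48.9 FPKM (2.88 ± 0.96, adjusted p = 0.0382). The summed level of the list was 1525 and 2350 FPKM in the 2-cell and 2517 and 1513 FPKM in the 4-cell libraries. It thus overlapped between the stages, and Trim43b made up the greater part of it in both 4-cell libraries. The Trim43 genes are copies of one family, and reads may be divided between them. The call of Trim43a was lost under each of the 3 scalings. Trim43a lost its call without 2-cell replicate 1, 2-cell replicate 2 or 4-cell replicate 1.

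**Figure D4:**
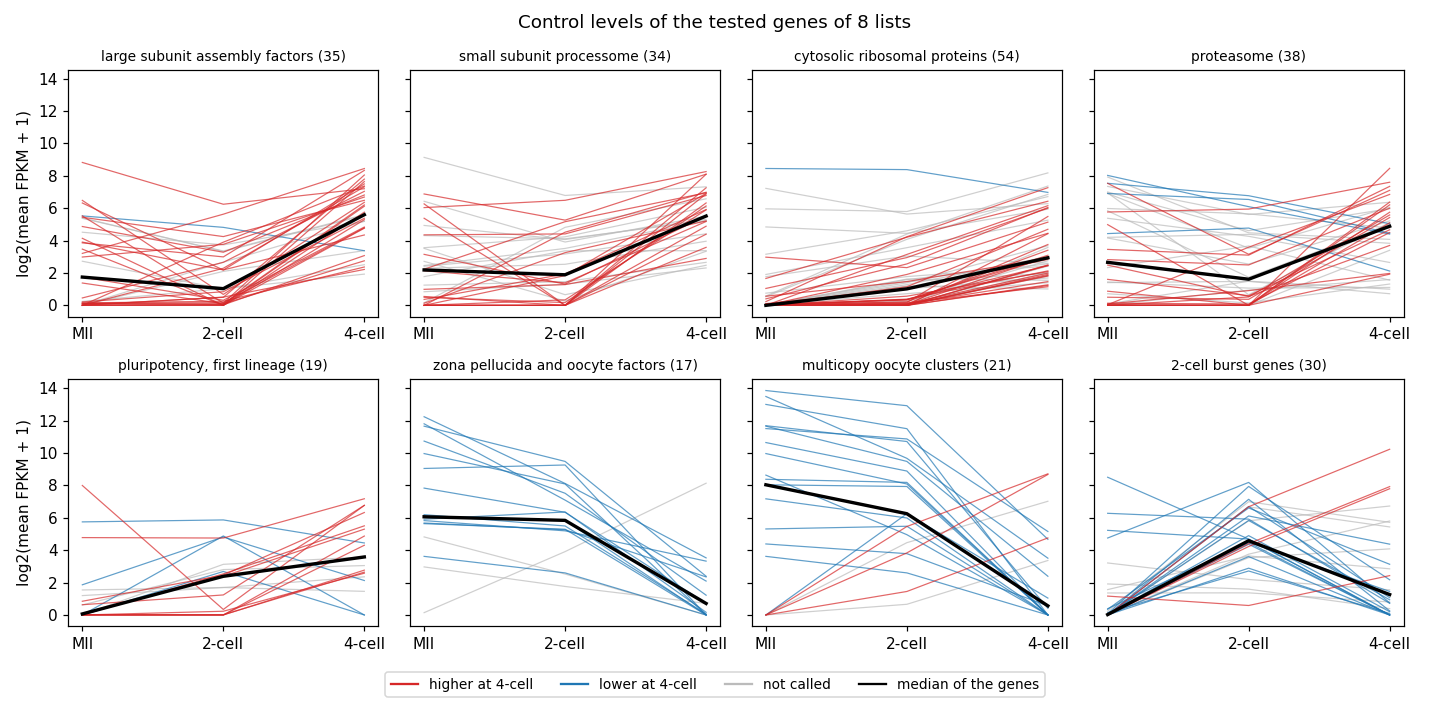
Control levels of the tested genes of 8 lists, as log2(mean FPKM + 1) of the 2 libraries of MII oocytes, 2-cell and 4-cell embryos, with 1 line per gene coloured by its call between the 2-cell and 4-cell stages and the median of the genes in black. The upper panels and the lineage factors end highest at the 4-cell stage, the zona and multicopy oocyte panels fall after the 2-cell stage, and the median of the burst genes is highest in 2-cell embryos.

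Lists of transcripts made in the growing oocyte held many of their members among the lower genes. All 8 tested Nlrp genes were lower, 6 of 6 in the list outside the cortex complex with a median difference of -5.95, and 2 of these 6 were seen at both stages. Nlrp9c had 300.4 and 512 FPKM in MII oocytes, 431 and 313 FPKM in 2-cell and 0.647 and 2.32 FPKM in 4-cell embryos (difference -7.30 ± 0.46, adjusted p = 4.86e-05), and Nlrp9a and Nlrp9b went from 163 and 120.2 and from 80.4 and 60.3 FPKM to 0 in all 4-cell libraries. Copies of this family are alike in sequence, so their separate values are uncertain. Of the subcortical maternal complex, which sits beneath the membrane of the oocyte, 4 of 6 genes were lower and 1 was higher. The 4 lower genes reached 1 FPKM at the 2-cell stage only, and of the 2 seen at both stages 0 were lower. The summed level of the list was 605 and 498 FPKM in the 2-cell and 74.6 and 42.1 FPKM in the 4-cell libraries. Ooep went from 68.6 and 69.5 FPKM to 0.693 and 0.186 FPKM (difference -5.63 ± 0.50, adjusted p = 1.81e-04), and Zbed3 from 38.4 and 31.5 FPKM to 0 in both libraries. Khdc3 went the other way, from 33.9 and 75.2 FPKM in MII oocytes to 1.01 and 0 FPKM in 2-cell and 50.5 and 41.3 FPKM in 4-cell embryos (difference 5.04 ± 0.54, adjusted p = 4.15e-04).

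Of 17 genes of the egg coat, fertilization and oocyte growth factors, 14 were lower and 0 were higher (0 also at an unadjusted p under 0.05, by limma), with a median difference of -5.29, and among 8 seen at both stages 7 were lower. The secreted oocyte protein genes Oosp1 and Oosp3 had 693 and 732 and 266 and 276 FPKM in 2-cell embryos. Later Oosp1 had 5.33 and 3.17 FPKM (difference -7.12 ± 0.37, adjusted p = 2.72e-05) and Oosp3 was listed at 0. Of 21 transcripts in a list of multicopy oocyte clusters and Btg4, 16 were lower and 3 were higher. Among 10 seen at both stages 5 were lower and 3 higher, with a median of -1.88 in place of -5.73. The lists share members. Btg4 is counted again with the decay genes, and Oosp1, Oosp2 and Oosp3 are counted also with the egg coat and growth factor genes. Btg4, the adapter that brings the deadenylase CCR4-NOT to maternal mRNAs, had 14252 and 15377 FPKM in MII oocytes, 8212 and 7265 FPKM in 2-cell and 25.5 and 23.5 FPKM in 4-cell embryos (difference -8.25 ± 0.18, adjusted p = 1.28e-06). The 3 higher genes, Obox6, Obox8 and Pramel7, were at 0 in both MII libraries. Obox6 had 5.51 and 80.7 FPKM in 2-cell and 552 and 285 FPKM in 4-cell embryos (difference 4.11 ± 1.27, adjusted p = 0.0288) and Pramel7 18.6 and 7.96 and then 61.6 and 752 FPKM (4.04 ± 1.19, adjusted p = 0.0247), with replicates far apart at the 2-cell stage for Obox6 and at the 4-cell stage for Pramel7, whose call was lost when the libraries were scaled to the same median or quantiles. Leaving out the 4 libraries in turn gave 5, 5, 6 and 5 lower for the Nlrp list, 13, 13, 14 and 13 for the egg coat and growth factor list and 16, 16, 15 and 16 for the multicopy clusters, of which 1, 2, 2 and 2 were called higher. Obox6 lost its call without 2-cell replicate 1, 4-cell replicate 1 or 4-cell replicate 2 and Pramel7 without 2-cell replicate 1, 2-cell replicate 2 or 4-cell replicate 2.

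Regulators of meiosis and of stored mRNA followed. Of 9 genes of meiotic arrest and M phase, 6 were lower and 0 were higher (0 also at an unadjusted p under 0.05, by limma). Fbxo43, the inhibitor of the anaphase-promoting complex that keeps the egg in metaphase, went from 55.8 and 47.9 FPKM to 0 and 1.67 FPKM (difference -5.01 ± 0.53, adjusted p = 3.78e-04). Of 13 genes of mRNA storage and repression, 7 were lower, among them Pabpc1l, the embryonic poly(A)-binding protein, with 20.8 and 13.02 FPKM and then 0.0645 and 0 FPKM (limma adjusted p = 0.0164), although it had only 0.544 and 0.515 FPKM in MII oocytes. Of those seen at both stages, 3 of 6 in the arrest list and 4 of 9 in the storage list were lower. With each library left out, 5, 7, 4 and 3 storage genes were called lower. Of 22 genes of deadenylation, decapping and decay, 5 were lower and 5 were higher (3, 5, 3 and 3 lower and 2, 3, 2 and 4 higher without each library). The share was 22.7% each way, near or below the 30.6% higher and 24.5% lower of all genes. The decapping enzyme gene Dcp2 and its activator Dcp1a were lost, with 43.95 and 51.7 FPKM and then 0.626 and 1.44 FPKM for Dcp2 (difference -4.61 ± 0.56, adjusted p = 6.74e-04) and 47.7 and 26.7 FPKM and then 0 in both libraries for Dcp1a (adjusted p = 0.0364). Dcp1a lost its call in each of the 4 fits that left out a control embryo library, and Pabpc1l without 2-cell replicate 1, 4-cell replicate 1 or 4-cell replicate 2.

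Chromatin genes were called in both directions. Of 17 histone rows, 9 were lower and 2 were higher, but 7 reached 1 FPKM at the 2-cell stage only. Among the 9 seen at both stages 2 were lower and 1 was higher, with a median difference of 0.57 in place of -1.09. H1foo, the linker histone of the oocyte, had 5458 and 5754 FPKM in MII oocytes, 71.1 and 96.5 FPKM in 2-cell and 6.77 and 0.9998 FPKM in 4-cell embryos (difference -4.41 ± 0.67, adjusted p = 0.00178). H2afx rose from 9.19 and 12.1 FPKM to 136 and 196 FPKM (difference 3.83 ± 0.46, adjusted p = 6.54e-04). Most replication-dependent histone mRNAs end without a poly(A) tail, and their values depend on how the libraries were primed, which was not tested. Npm2, the histone chaperone of the egg, fell from 350.1 and 341 FPKM to 12.4 and 8.41 FPKM (difference -4.95 ± 0.27, adjusted p = 3.19e-05), while Chaf1b, of the replication-coupled chaperone CAF-1, went from 0.290 and 0.0890 FPKM to 30.96 and 31.9 FPKM (difference 4.77 ± 0.27, adjusted p = 3.40e-05). Zfp57, which guards imprints, fell from 244 and 217 FPKM to 26.1 and 12.9 FPKM (difference -3.57 ± 0.40, adjusted p = 5.06e-04), and its partner Trim28 went from 0.698 and 1.64 FPKM to 35.8 and 63.6 FPKM (difference 4.53 ± 0.60, adjusted p = 9.65e-04). The deacetylase gene Hdac2 went from 0.0881 and 0.118 FPKM to 63.98 and 31.3 FPKM (difference 5.38 ± 0.55, adjusted p = 3.28e-04).

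Some lists had few calls or were near the shares of all genes. None of 8 cholesterol synthesis genes was called by limma, and 0 passed an unadjusted p under 0.05. The most abundant of them, Sqle, had 53.97 and 48.8 FPKM and then 59.7 and 45.6 FPKM (limma adjusted p = 0.988). Of 24 actin, tubulin and actin-binding genes, 0 were higher by limma (1 at an unadjusted p under 0.05, and 2, 1, 0 and 1 without each library) and 4 were lower (16.7%, against 24.5% of all genes, and none of the 19 seen at both stages), among them Tubg2, with 329 and 300.1 FPKM and then 0 in both libraries (adjusted p = 1.14e-05). Of 16 nucleoporin genes, 2 were higher and 1 was lower (12.5% and 6.25%, below the 30.6% and 24.5% of all genes, with 0, 1, 1 and 1 and 0, 0, 0 and 1 without each library). Of 108 C2H2 zinc finger genes, 27 were higher and 23 lower, and this order turned to 22 and 29 when the libraries were scaled to the same median. The medians of the nucleoporin, cyclin, cholesterol, decay and mitochondrially encoded lists changed sign between the deposited values and each of the 3 scalings, and those of the Zfp, signalling and histone acetylation lists did so with quantile normalization, whereas those of the ribosome assembly, translation, chaperonin, oocyte and burst lists kept theirs.

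Families were also counted by the letters that begin their symbols. Over all genes, 30.6% were higher and 24.5% were lower. Among 76 such families with at least 8 tested genes, the largest shares of higher genes were those of Prpf (7 of 8), the RNA helicases named Ddx (15 of 19), Tomm (6 of 8), Rpl and Rps. Of these, 3 Prpf, 11 Ddx, 5 Tomm, 38 Rpl and 36 Rps genes were seen at both stages. The largest shares of lower genes were those of Nlrp (8 of 8), the homeobox genes Obox (11 of 13, of which 9 are named as pseudogenes), Fbxw (8 of 10), the olfactory receptors Olfr (15 of 20) and Hist (7 of 10). The median difference of the Olfr genes was −1.63, and 3 of the 20 were seen at both stages. So were 2 of the Nlrp, 3 of the Obox, 4 of the Fbxw and 3 of the Hist genes. The other members passed the filter through a single stage and had to differ, so the ranking follows the filter in part.

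Neighbouring genes called the same way, with at most 100 kb between them, formed 70 runs of 3 or more among the higher genes and 42 among the lower genes, with 11.5% and 9.15% of the called genes in them. The longest run of lower genes held 7, at chr13:120140246-120318178 (GRCm38), with Tcstv3, AF067061 and other members of that cluster. Runs of 5 or 4 lower genes included those with Gm2022 at chr12:87895370-88018771, with Duxf3 at chr10:58222972-58236701, with Pramef6 at chr4:143719455-143900380 and with Fbxw14 at chr9:109270790-109495875, named here after their values were seen. In these tandem clusters of near-copies reads can be shared, so their members are not independent. They are 4 of the 12 runs of 5 or 4 lower genes, and others hold genes that are not copies of each other, such as Polr2g, Ttc9c, Hnrnpul2 and Gng3, also named after their values were seen. The longest runs of higher genes held 5, and at chr10:81070035-81193197 Eef2 lies among Thop1, Map2k2, Pias4 and Dapk3.

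The same passage was measured in Ago2 kd embryos, whose 4 libraries share none with the control passage. Of the 1964 higher genes, 1800 (91.6%) had a difference of the same sign in Ago2 kd embryos and 1144 were also called higher there, while 5 were called lower. Of the 1573 lower genes, 1490 (94.7%) had the same sign, 1122 were also called lower and 9 were called higher. The sign was also the same in 82.9% of all 6423 genes and in 70.4% of the genes not called. Both differences of a gene were tested with the same estimate of its spread, so the 2 sets of calls are not independent. The median difference was smaller in Ago2 kd than in control embryos, 2.16 against 2.91 for genes called higher and −2.35 against −2.89 for genes called lower, but they were chosen for their size in the control. The difference between the passages passed limma's test at an adjusted p under 0.05 in 190 genes (2.96%), of which 134 were higher in the control passage, 41 were lower and 15 were not called. In 52 of the 190, all 4 Ago2 kd libraries were listed at 0. Without 4-cell Ago2 kd replicate 1, the library that stood apart, the number of genes was 254, and without replicate 2 it was 510.

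The zeros themselves could be read against the Ago2 kd libraries. Of the 409 higher genes listed at 0 in both control 2-cell libraries, 272 were also at 0 in both 2-cell Ago2 kd libraries, 61 had at least 1 FPKM in one of them and 12 at least 10 FPKM. Of the 556 lower genes listed at 0 in both control 4-cell libraries, 354 were at 0 in both 4-cell Ago2 kd libraries, 85 had at least 1 FPKM in one of them and 9 at least 10 FPKM. Among the largest falls, Rfpl4, Wee2, Bmp15 and Nlrp4f were at 0 in all 4-cell libraries of both kinds, although 2-cell Ago2 kd embryos had 2637 and 3299 FPKM of Rfpl4 and 572 and 556 FPKM of Wee2. Among the largest rises, 4-cell Ago2 kd embryos had 50.8 and 50.3 FPKM for Hnrnpab, for Prps1 2118 and 2693 FPKM and for Stip1 0 and 557 FPKM. Cct2, Psmd7, Lrrc59 and Zmpste24 were likewise at or near 0 in replicate 1 and had 44.7 to 452 FPKM in replicate 2, and Lamp1 had 61.4 and 0 FPKM. Tmem50b, Wdr43, Ppan and Gm26917 were present in both replicates.

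**Figure D5:**
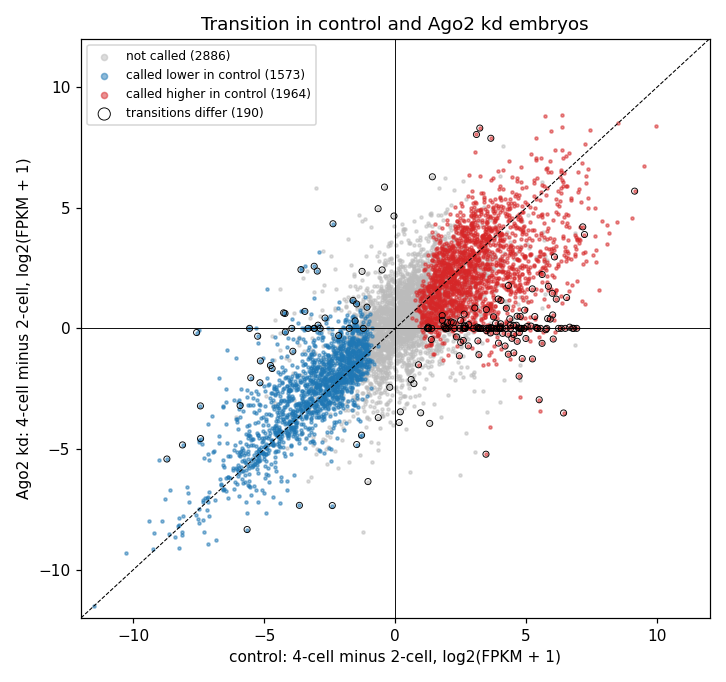
Difference between the 4-cell and the 2-cell stage in control embryos (x axis) and in Ago2 kd embryos (y axis), in log2(FPKM + 1), for the 6423 genes, coloured by the call in control embryos. Open circles mark the 190 genes whose difference itself differed, many of them on the horizontal line at 0, and the dashed line marks equal differences.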

How the data were processed

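The RNA-seq libraries and their groups are those of the sample labels; the stages and injections come from the methods. The authors trimmed the reads, aligned them to GRCm38 (mm10) with HISAT2 2.1.0 (version from the submitters' processing notes) and deposited FPKM computed with StringTie, 1 value per gene name and library. How transcripts or identifiers were merged into a gene name, and whether strand was used, is not given in the sources used here, so overlapping genes are uncertain (777 of 6423 overlap another tested gene). The level of Ago2 is not analysed here.

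The FPKM were analysed as log2(FPKM + 1), unscaled, in R 4.3.3 with limma 3.58.1, with 1 mean per group over all 10 libraries (5 residual degrees of freedom), empirical Bayes with a trend on the mean (median prior degrees of freedom 2.11) and two-sided tests adjusted with Benjamini-Hochberg over the 6423 genes. With 2 against 2 libraries an exact permutation test cannot go below p = 0.333. On simulated data with 200 of 6423 genes changed by 3 log2 units, 109 changed and 6 unchanged genes were called. Because FPKM are not counts, no count model was run. Same-numbered replicates did not deviate together (correlations of −0.093 to 0.117 over 10 pairs of groups).

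Positions and transcripts came from GENCODE M21 on GRCm38, which matched 6186 of the 6423 genes by symbol. The members and the 63 gene lists were chosen with earlier results of these data known. Named genes were the 12 largest rises and falls among called genes whose libraries did not overlap between stages and whose higher stage averaged at least 10 FPKM, up to 3 rises and 3 falls of each list by the same rule without that minimum, the most abundant gene of a list without a call, and the 5 symbol families at each end. Promoters were matched for 81.5% of higher, 82.0% of lower and 84.2% of not called genes, mRNA ends for 84.1%, 84.2% and 85.1%. Alternatives were another pseudocount, 3 filters, 3 scalings, fewer libraries in the fit, the replicate number as a term, no trend, other thresholds and leaving out libraries. Figures were drawn with matplotlib 3.10.9.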

Additional observations from a re-analysis of the deposited data

Results flagged for a closer look

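The difference between the 2-cell to 4-cell passages of Ago2 kd and control embryos passed limma's interaction test at an adjusted p under 0.05 in 190 of 6423 genes. Those named in the report are given here, each with the passage in Ago2 kd minus the passage in control embryos in log2 units.

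Of the 134 such genes called higher in control embryos, 131 had a smaller or negative difference in Ago2 kd embryos. In 44 of the 134, all 4 Ago2 kd libraries were listed at 0. The genes were chosen for a rise in the control and for a difference between the passages, which favours this direction. The lineage and signalling genes named in the report were among the 131. The values were -9.93 for Sall4, -6.24 for Klf2, -4.75 for Tead4, -3.96 for Fgf4, -5.19 for Amotl2 and -3.27 for Lats2. In 4-cell Ago2 kd libraries Klf2, Tead4, Fgf4 and Amotl2 were listed at 0 in both, and Sall4 had 0.0929 and 0.0878 FPKM after 30.7 and 3.85 FPKM at the 2-cell stage, a difference of -3.51 log2 units that is opposite in sign to that of control embryos.

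Genes of RNA and ribosome production gave -6.82 for Nol9, -5.43 for Dis3, -4.69 for Prpf4, -4.24 for Twistnb and -3.45 for Hnrnpab. Chromatin genes gave -5.54 for Trim28, -5.34 for Hdac2, -4.28 for Chaf1b and -3.62 for H2afx. Tomm22 gave -4.94 and Mat2a -2.95, and Mat2a reached 349 and 264 FPKM in the 4-cell knockdown.

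Of the 41 such genes called lower in control embryos, 36 had a less negative difference in Ago2 kd embryos, a direction favoured in the same way. Among these were Tcstv3 with 4.23, Polr3k with 4.04, Timm21 with 3.33 and Gm8332 with 3.31. Polr3k and Timm21 were already low in 2-cell Ago2 kd embryos, with 0.307 and 0.102 and 0 and 0 FPKM, whereas 4-cell Ago2 kd embryos had 13.7 and 13.5 FPKM of Tcstv3 and 8.53 and 7.05 FPKM of Gm8332.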

How the results depend on the processing

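Against 1964 higher and 1573 lower genes, the pseudocounts, filters, scalings, sets of libraries and thresholds tried gave 1516 to 2210 higher and 1093 to 1795 lower genes, except where at least 1 FPKM was required at both stages, which left 871 and 523 of 4082 genes tested. Leaving out 1 of the 4 control embryo libraries gave 1322 to 1521 higher and 1230 to 1336 lower genes, and leaving out 4-cell Ago2 kd replicate 1 gave 2195 and 1610. The replicate block gave 1930 and 1553, and of the named genes described Cct4 and Smad4 lost their call with it. The correlation of the replicate deviations between the 2-cell and 4-cell control libraries was 0.017, so the numbers do not pair the samples. In all 4 fits that left out a control embryo library 1108 higher and 1068 lower genes kept their call, and under the 3 scalings 1614 and 1566. The number of genes whose passage differed between Ago2 kd and control embryos was 190, 145 with the replicate block, 200 with a pseudocount of 0.1 and 197 with the same median, and 118 to 510 without 1 embryo library. It was 118 without 2-cell control replicate 2 and 510 without 4-cell Ago2 kd replicate 2. No named gene that was called reversed its direction under any of these alternatives. Of the 279 called named genes, 178 were called the same way without each control embryo library in turn and 264 under the 3 scalings. FPKM hold no depth, so genes near 1 FPKM are limited by an unknown counting error, and a value of 0 cannot be told from a failed estimate.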

Other observations

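Genes of the vacuolar ATPase, nuclear transport and ubiquitin systems were also called in part. All tested genes had shares of 30.6% higher and 24.5% lower, and the vacuolar ATPase (27.3% and 9.09%) and the ubiquitin-conjugating enzymes (26.7% each way) were near or below these. Of 11 tested genes of the vacuolar ATPase, 3 were higher (2, 2, 1 and 1 without 2-cell replicate 1, 2-cell replicate 2, 4-cell replicate 1 and 4-cell replicate 2 in turn) and 1 was lower (0, 0, 1 and 0). The accessory subunit gene Atp6ap2 went from 0.612 and 0.0736 FPKM in 2-cell to 69.1 and 29.9 FPKM in 4-cell embryos (difference 5.15 ± 1.67, adjusted p = 0.0344 by limma), after 85.1 and 101 FPKM in MII oocytes. Of 14 importins and exportins, 8 were higher (5, 6, 5 and 5) and 2 were lower (1, 1, 1 and 1). Kpna7, the importin alpha of the oocyte, fell from 252 and 124 FPKM to 0 in both 4-cell libraries (adjusted p = 2.78e-05 by limma), while Kpna1 went from 0.0895 and 0.677 FPKM to 31.6 and 33.6 FPKM (difference 4.64 ± 1.19, adjusted p = 0.0147 by limma). Of 15 ubiquitin-conjugating enzymes, 4 were higher (2, 2, 2 and 2) and 4 were lower. Ube2a fell from 121 and 139.7 FPKM to 32.9 and 22.2 FPKM (difference -2.22 ± 0.33, adjusted p = 0.00157 by limma) although it had 9.81 and 10.3 FPKM in MII oocytes, so its level peaked at the 2-cell stage. Atp6ap2 lost its call in each of the 4 fits that left out a control embryo library, and Kpna1 without 2-cell replicate 1, 4-cell replicate 1 or 4-cell replicate 2.

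Redox and snoRNA host genes gave smaller groups. Of 13 peroxiredoxin, thioredoxin and glutathione genes, 5 were lower (1, 1, 2 and 1 without the same libraries in turn) and 2 were higher (1, 1, 1 and 3). Prdx2 went from 344 and 498 FPKM to 13.9 and 10.6 FPKM (difference -4.98 ± 1.46, adjusted p = 0.0241 by limma) and Prdx5, of mitochondria and peroxisomes, from 17.9 and 33.7 FPKM to 96.8 and 104 FPKM (difference 1.98 ± 0.43, adjusted p = 0.00750 by limma). Of 9 snoRNA host genes, whose introns carry the guides of ribosomal RNA modification, 4 were higher (1, 4, 4 and 2) and 0 were lower (0 also at an unadjusted p under 0.05, by limma). Gas5 went from 0.468 and 0.648 FPKM to 7.83 and 16.3 FPKM (difference 2.99 ± 0.55, adjusted p = 0.00392 by limma), and the rows of small RNAs inside it, which overlap it, were called higher with it. Prdx2 lost its call in each of the 4 fits that left out a control embryo library.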
